A study of Procambarus virginalis and Procambarus fallax with 9 samples.

Results

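The marbled crayfish, Procambarus virginalis, reproduces by parthenogenesis, and the animals of a laboratory strain are regarded as genetic copies of each other. RNA was sequenced from the hepatopancreas and the abdominal musculature of 3 adult P. virginalis animals of the Heidelberg laboratory strain, numbered 2, 6 and 7, and from the abdominal musculature of 3 females of the sexually reproducing Procambarus fallax that came from an aquarium supply, numbered 1, 3 and 4. This gave 9 libraries, 1 for each animal and tissue, with no treatment and no transgene in any group. The genes described here are those whose hepatopancreas level differed most between the P. virginalis animals at a moderate expression level. A gene was included if its TPM (a transcript level corrected for gene length and scaled to the same total in every library) averaged at least 10 and below 1000 over the 3 hepatopancreas libraries and below 1000 over the 3 muscle libraries of P. virginalis, and if the highest hepatopancreas TPM was at least 10 times the lowest, a lowest TPM of 0 included. The rule selected 107 of the 21773 gene models in the files. Of the 2503 gene models within the same TPM limits, these variable genes made up 4.27%, and the other 2396 served as the set for comparison.

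The hepatopancreas is the digestive gland of decapod crustaceans. It secretes digestive enzymes into the gut, takes up nutrients from it and stores lipid and glycogen, and its tubules hold stem cells, absorptive cells and secretory cells side by side. In bulk RNA, as here, more RNA per cell and more cells of a type cannot be told apart. The gene models carry only identifiers of draft scaffolds, which the files pair with no gene name, so no function could be given to a variable gene and the labelled tissues could not be checked against named marker genes. The 85 genes that averaged at least 1000 TPM in the hepatopancreas and below 1000 in the muscle of P. virginalis, a choice that sets their direction there, had a summed TPM between 528920 and 589374 in the hepatopancreas libraries, between 8045 and 8958 in the P. virginalis muscle libraries and between 7796 and 15843 in those of P. fallax.

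The depth differed between the libraries. The expected counts, which are the numbers of fragments assigned to genes, summed to 67369392 in the hepatopancreas of animal 2, to 15489449 in that of animal 6 and to 12947418 in that of animal 7. They lay between 6001494 and 18661368 in the muscle libraries of P. virginalis and between 9109577 and 11942816 in those of P. fallax. The libraries of animals 2 and 6 were read with shorter reads than those of animal 7 and of P. fallax. A difference between animal 7 and the other P. virginalis animals and a difference in read length therefore cannot be told apart. In muscle, read length was in part confounded with species, and its effect on the comparison of the species was not tested. Each animal gave 1 hepatopancreas library, hence a difference between animals has no replicate and no test, and the values that follow in the hepatopancreas are a description of what the rule selected.

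The variable genes covered a wide range of ratios. Their highest TPM was a median of 28.3 times their lowest (quartiles 15.1 and 91.5), whereas the median ratio over the 2503 genes of the TPM range was 2.02 (quartiles 1.55 and 3.02). A ratio of at least 20 was found in 61 variable genes, of at least 100 in 26 and of at least 1000 in 15, and these counts include the 11 variable genes whose lowest animal was at TPM 0. The 3 variable genes nearest to the limit had ratios of 10.16, 10.16 and 10.47, and the 3 genes nearest to it from below had ratios of 9.91, 9.94 and 9.97. Ratios of this size were found at each expression level. They were held by 35 of 934 genes (3.75%) with a mean TPM of 10 to 20, by 40 of 802 (4.99%) at 20 to 50, by 13 of 393 (3.31%) at 50 to 100 and by 19 of 374 (5.08%) at 100 to 1000.

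The counts behind most of these ratios were high on one side and low on the other. The animal with the highest TPM had a median of 1935 counts per variable gene (lowest 11, highest 230216), and 4 variable genes had under 100 counts there. The animal with the lowest TPM had a median of 33 counts, and 21 variable genes had at most 3. Each deposited TPM comes with an interval that covers counting and the assignment of reads to genes, and whose level is not stated in the sources used here. The lower bound in the highest animal was at least 10 times the upper bound in the lowest animal in 76 of the 107 genes and at least 5 times in 96, and the bounds did not overlap in 101. In 4 variable genes, all of them with counts that were not whole because reads were divided between similar transcripts, the TPM of the highest animal lay outside its own interval by more than 1%. Counts that were not whole in the hepatopancreas were found in 35 of the 107 variable genes (32.7%) and in 28.2% of the comparison set. Without molecular identifiers reads are not independent molecules, so intervals and floors given here hold for counting error alone.

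The variable genes were sorted by which animal stood apart. On the log2(TPM + 0.1) scale, a gene was placed in the "high" pattern of its highest animal if its middle value was nearer to the lowest, and in the "low" pattern of its lowest animal if it was nearer to the highest. Animal 2 alone was high in 32 genes and alone low in 22, animal 7 was high in 16 and low in 24, and animal 6 was high in 3 and low in 10. Animal 2 was thus the odd animal in 54 genes (50.5%), animal 7 in 40 (37.4%) and animal 6 in 13 (12.1%). In the comparison set, where the differences are small, animal 2 was the odd one in 51.6%, animal 7 in 27.0% and animal 6 in 21.4%. Animals 2 and 7 differed at least 10 times in 85 variable genes, animals 2 and 6 in 54 and animals 6 and 7 in 34.

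**Figure D1:**
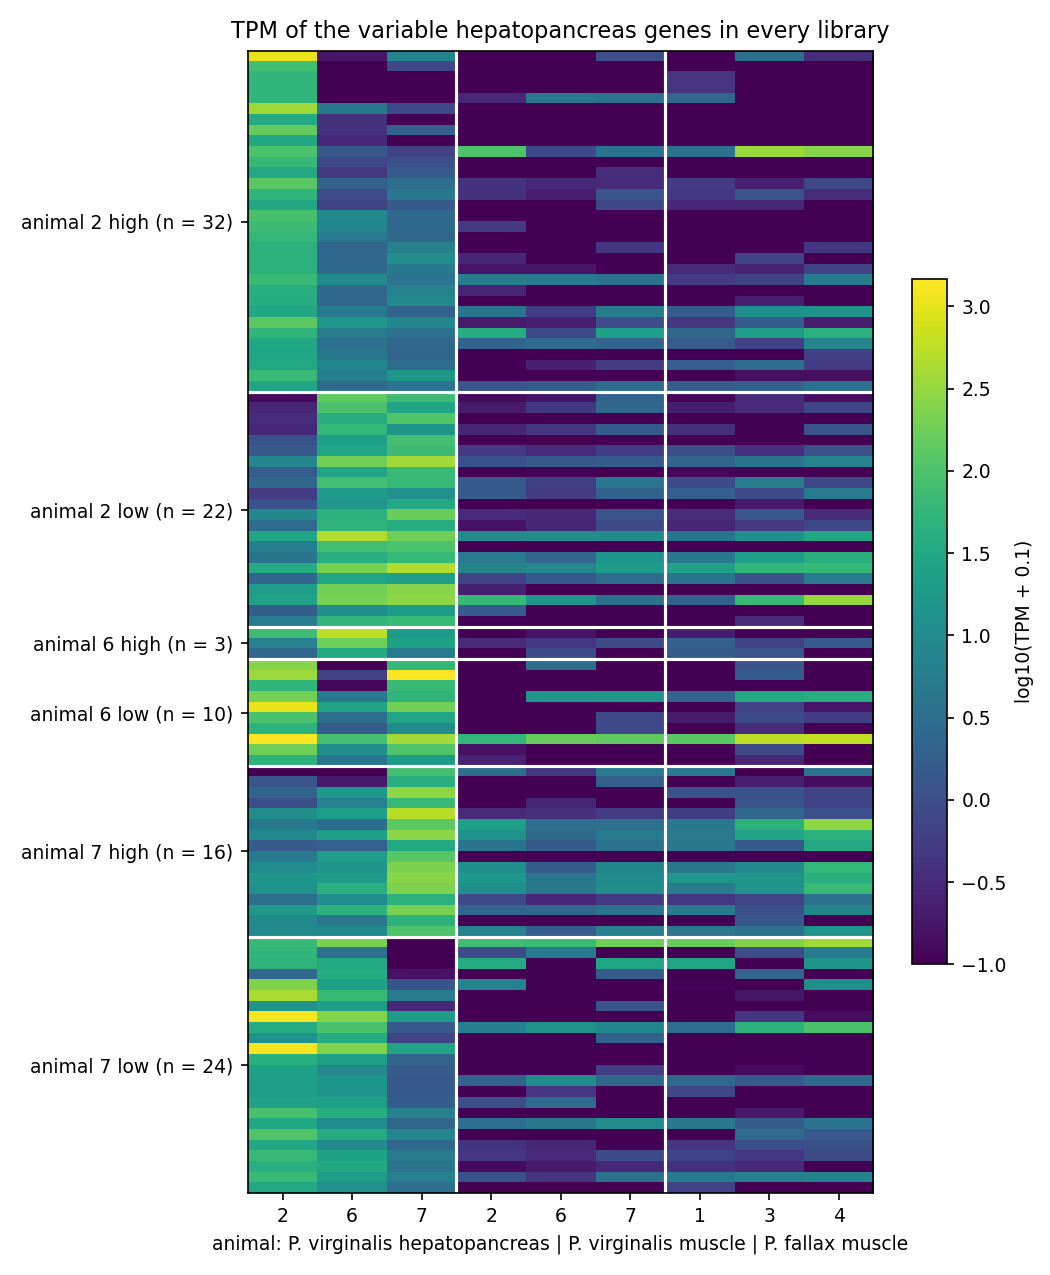
Level of each of the 107 variable genes (rows) in the 9 libraries (columns), as log10(TPM + 0.1), grouped by the animal that stood apart in the hepatopancreas. Within a pattern 1 hepatopancreas column is the high or the low one by definition. Most rows are dark in the 6 muscle columns, where 15 genes had no count at all.

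The definition allows 6 patterns and sorts each gene by its own values, so the groups are a description and no sign that their genes are linked. The 32 genes high in animal 2 had median TPM values of 53.3 in animal 2, 2.25 in animal 6 and 2.46 in animal 7. The 22 genes low in animal 2 showed the opposite order, with median TPM values of 2.28 in animal 2, 53.3 in animal 6 and 68.6 in animal 7. Animals 6 and 7 were close to each other in the medians of both groups, as the definition of these patterns asks. The 24 genes low in animal 7 had median TPM values of 42.5, 24.7 and 1.89 in animals 2, 6 and 7, and the 16 genes high in animal 7 had 7.46, 13.0 and 126. The 10 genes low in animal 6 had median TPM values of 186, 3.57 and 62.7, and the 3 genes high in animal 6 had 6.46, 177 and 17.9.

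The most frequent full orders were animal 2 above 6 above 7, with 33 genes, animal 7 above 6 above 2, with 25, and animal 2 above 7 above 6, with 23. The remaining orders had 6 genes for 6 above 2 above 7, 10 for 6 above 7 above 2 and 6 for 7 above 2 above 6, and 4 genes had tied lowest animals. Added up over the 107 genes, TPM was 11341 in animal 2, 4636 in animal 6 and 7919 in animal 7, which was 1.13%, 0.464% and 0.792% of all transcripts. Animal 6 had the lowest sum and the fewest genes with the highest value, 16 against 59 in animal 2 and 32 in animal 7. The lowest values were spread more evenly, with 36 genes lowest in animal 2, 32 in animal 6 and 39 in animal 7. Here the 4 genes with tied lowest animals are counted under the lower-numbered of the tied animals.

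**Figure D2:**
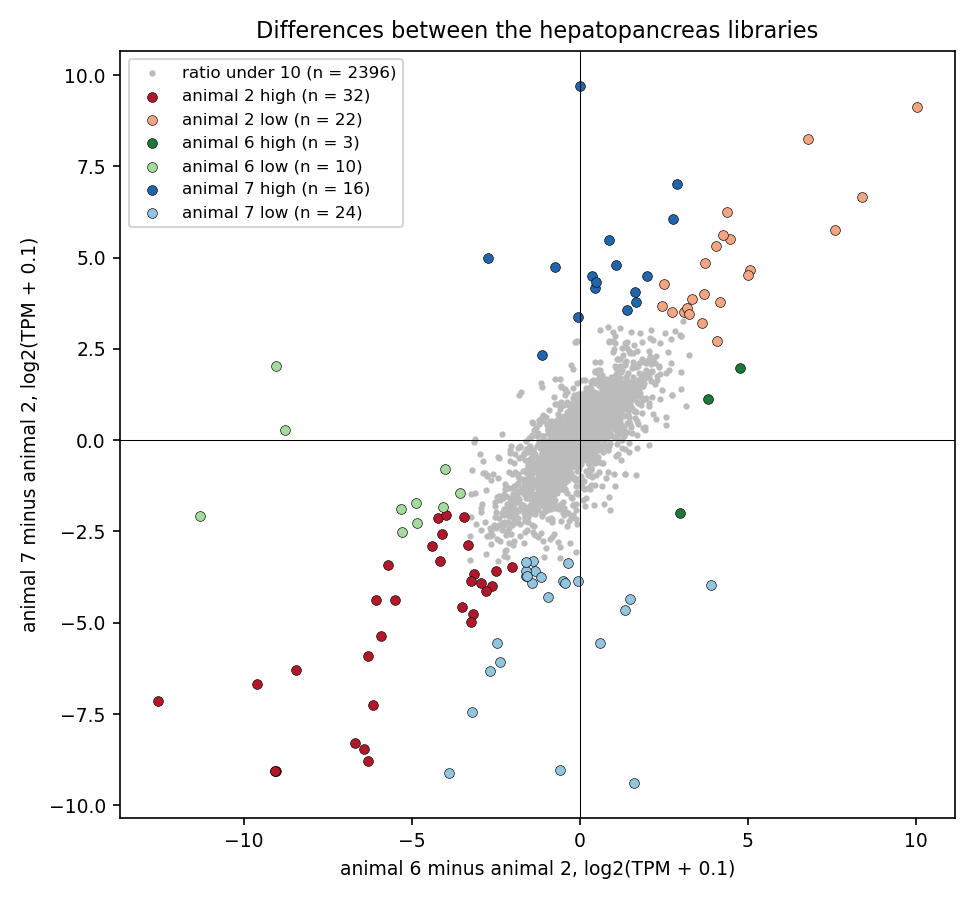
Each point is a gene of the TPM range, placed by its log2(TPM + 0.1) difference between animals 6 and 2 (horizontal axis) and between animals 7 and 2 (vertical axis), for the 2396 genes with a ratio under 10 in grey and the 107 variable genes in the colour of their pattern. Genes high in animal 2 lie to the lower left, genes low in animal 2 to the upper right, genes in which animal 7 stood apart lie above and below the centre, and the 3 genes high in animal 6 lie to the right of it.

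For each pattern, the 2 genes with the widest ratio of TPM + 0.1 are given with their values. Among the genes high in animal 2, maker-scaffold77039-snap-gene-0.14 had the widest ratio with a lowest TPM above 0, namely 13487. Its TPM was 1079 in animal 2, 0.08 in animal 6 and 7.47 in animal 7, from 141576, 2 and 143 counts. It had 0, 0 and 9 counts in the muscle of the same animals, so its level in animal 2 was seen in the hepatopancreas only. The second gene of this pattern, maker-scaffold81436-exonerate_est2genome-gene-0.11, had TPM values of 78.9, 0 and 0.67 in animals 2, 6 and 7 and was at 0 in each of the 6 muscle libraries. Against a floor of 3 counts in animal 6, it was at least 109-fold higher in animal 2.

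Among the genes low in animal 2, maker-scaffold74849-snap-gene-1.32, a long gene model of 7402 nt, had TPM values of 0.03, 135 and 72.9 in animals 2, 6 and 7. The low value rests on 21 counts in the deepest library, against 16738 and 6690 counts in the shallower ones, so the low value was measured in the library with the most reads. The second gene, maker-scaffold47821-snap-gene-0.23, had TPM values of 0.18, 94.7 and 28.3. In muscle both genes had a TPM below 1 in animals 2 and 6 and of 2.14 and 2.43 in animal 7.

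The 3 genes high in animal 6 had no value near 0 in the other animals. The widest ratio belonged to snap_masked-scaffold50392-processed-gene-0.5, with TPM values of 71.9, 561 and 17.9 in animals 2, 6 and 7 and at most 0.11 in any muscle library. The next, maker-scaffold9799-snap-gene-0.4, had 6.46, 177 and 25.6. In both, animal 6 was more than 5 times above the next animal, and the intervals of the 3 animals did not overlap.

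Among the genes low in animal 6, maker-scaffold45857-snap-gene-0.5 had TPM values of 354, 0.57 and 1462 in animals 2, 6 and 7, from 37579, 12 and 22562 counts. It was at 0 counts in the 3 muscle libraries of P. virginalis and had 23 counts in the muscle of P. fallax 3. Its level differed 2565 times between animals 7 and 6, with whole counts in each library. The other gene with the widest ratio of this pattern, snap-scaffold253595-processed-gene-0.4, is uncertain. Its TPM values were 253, 0 and 60.3, but the deposited interval in animal 2 ran from 0.00088 to 48.8 and did not hold the TPM itself, and its counts were not whole. The assignment of its reads was therefore not resolved, and no fold is given.

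Among the genes high in animal 7, snap-scaffold24748-processed-gene-1.12 had TPM values of 0, 0 and 83.9 in animals 2, 6 and 7, with 118.58 counts in animal 7, and the interval in animal 7 ran from 8.53 to 147. Its interval in animal 2 reached up to 6.63 and lay below that of animal 7, whereas its interval in animal 6 reached up to 31.3 and overlapped that of animal 7, so no fold is given. The second gene, maker-scaffold43261-snap-gene-0.18, had TPM values of 1.17, 0.09 and 40.3 from 200, 3 and 1003 whole counts, and its interval bounds were 159 times apart between animals 7 and 6. The first gene thus carried a wide uncertainty of assignment and the second did not.

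Among the genes low in animal 7, maker-scaffold33142-exonerate_protein2genome-gene-0.3 had TPM values of 66.9, 204 and 0 in animals 2, 6 and 7. These came from 40, 18 and 0 counts on a model of 144 nt whose effective length was between 2.35 and 6.93 nt in the hepatopancreas libraries, and against the floor it was at least 2.03-fold higher in animal 6 than in animal 7. A difference of the selected size was not detectable at this depth. The second gene, snap-scaffold22087-processed-gene-0.8, had TPM values of 55.5, 3.63 and 0 from 496, 6 and 0 counts, at least 20.7-fold higher in animal 2 than in animal 7.

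**Figure D3:**
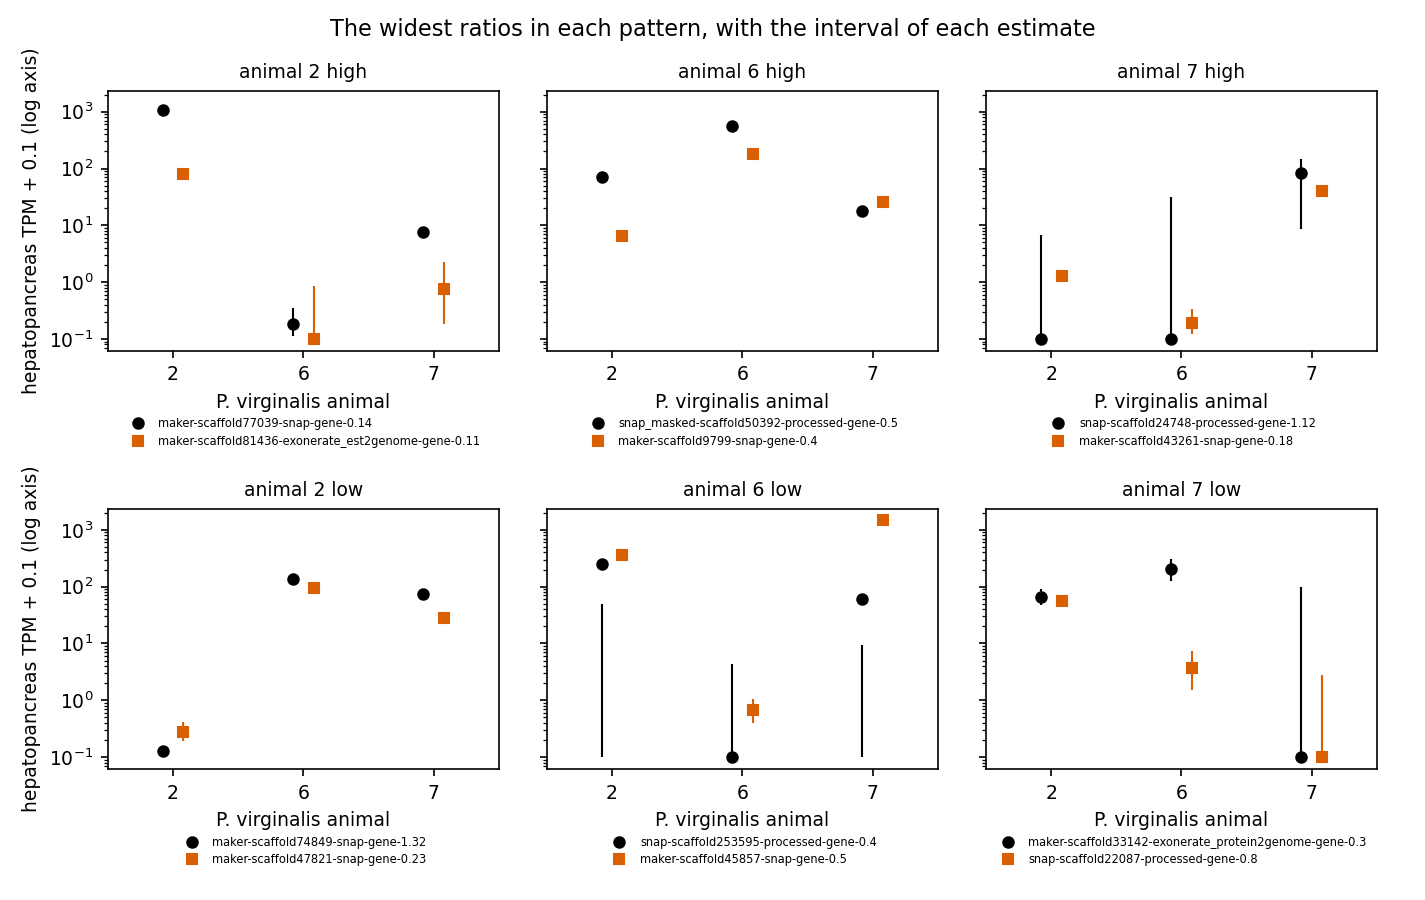
Hepatopancreas TPM + 0.1 (log axis) in animals 2, 6 and 7 for the 2 genes with the widest ratio in each of the 6 patterns. Points are the deposited TPM and vertical lines the deposited interval of each estimate. The interval of snap-scaffold253595-processed-gene-0.4 lies below its points in animals 2 and 7, and short models have long lines where their count was 0.

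Part of the variable genes lay on the same scaffolds. The 107 genes lay on 93 scaffolds, and 11 scaffolds held more than 1 of them, 25 genes in all. Counting, for each variable gene, the other genes of the TPM range on its scaffold gave 82 gene-neighbour pairs. In 34 of these (41.5%) the neighbour was a variable gene too. These are 17 pairs of variable genes, each counted from both sides, so 34 is not a number of genes. Variable genes made up 4.27% of the TPM range as a whole, a share of distinct genes and not of pairs. The files give a scaffold for each model but no position or strand, the libraries were not made to keep strand, and separate genes, overlapping genes and pieces of 1 gene cannot be told apart. The 17 pairs of variable genes on 1 scaffold had the same pattern in 10 cases (58.8%), against 20.6% of all pairs of variable genes. The highest animal was shared by all variable genes on 11 of the 11 scaffolds and the lowest animal on 9 of 11. The 9 include scaffold24748, where 1 gene was tied at TPM 0 in animals 2 and 6 and the tie was counted for animal 2. For scale, animal 2 was highest in 59 of the 107 genes, animal 7 in 32 and animal 6 in 16. How often genes of different scaffolds would share it was not tested.

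Scaffold48889 carried 3 genes that were high in animal 7. Their TPM values in animals 2, 6 and 7 were 9.64, 20.4 and 273 for the first, 10.7, 15.0 and 219 for the second, and 1.49, 1.93 and 35.7 for the third. The 3 genes differed in level but kept the same order of animals. They were also detected in muscle, where their TPM in P. virginalis lay between 1.44 and 13.2, and among the P. fallax animals they were highest in animal 4, with 47.8, 57.8 and 32.6.

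Scaffold38040 carried 3 genes with the highest TPM in animal 2, a lower one in animal 6 and the lowest in animal 7. Their values were 434, 67.3 and 5.34 for the first, 1296, 236 and 27.4 for the second, and 379, 4.73 and 0.76 for the third. None had a count in the muscle of P. virginalis, and in P. fallax the only value above 0 was a TPM of 0.07. All 3 had counts that were not whole in some library, so their reads were in part divided between similar transcripts and their levels are uncertain to that extent.

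Scaffold22087 carried 3 genes that were highest in animal 2, among them the abundant one with 1391, 81.9 and 389 TPM in animals 2, 6 and 7. This gene was also among the few variable genes with a high level in muscle, at 57.8, 158 and 141 TPM in the same animals, with the order of the animals different from that in the hepatopancreas. Of the 8 scaffolds with 2 variable genes, 4 are given here, chosen after their values were seen. The 2 genes of scaffold104277 had 40.5, 2.24 and 6.75 TPM and 48.1, 2.47 and 10.8 TPM, and the 2 genes of scaffold130880 had 61.3, 0.67 and 0.93 and 35.3, 0.31 and 0. The 2 genes of scaffold68984, low in animal 2, had 1.54, 27.1 and 65.0 and 0.25, 38.8 and 108, with ratios of 42.2 and 430 and 2.03 counts behind the lowest value. The 2 genes of scaffold24748 differed in pattern, with 36.9, 202 and 471 TPM and 0, 0 and 83.9 TPM. Below the TPM range, genes with a mean TPM of 1 to 10 had a ratio of at least 10 in 8 of 59 cases (13.6%) on the scaffolds of variable genes and in 419 of 4801 (8.73%) of all such genes, and in 3 of the 8 the pattern was that of a variable gene on the scaffold.

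**Figure D4:**
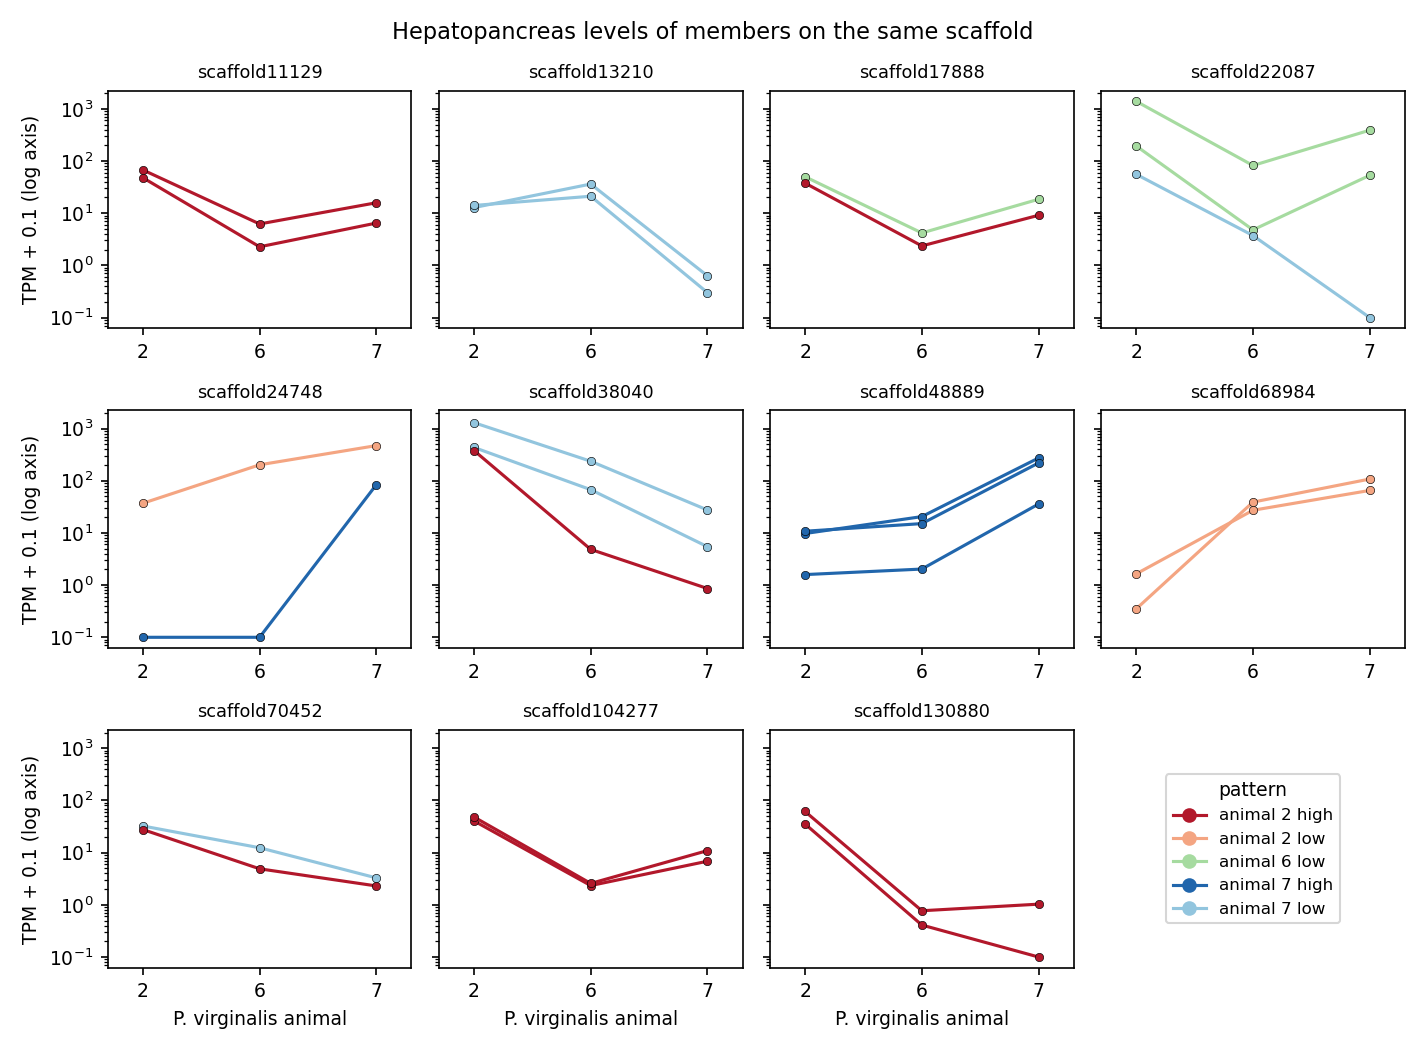
Hepatopancreas TPM + 0.1 (log axis) in animals 2, 6 and 7 for the 25 variable genes on the 11 scaffolds that hold more than 1, with 1 panel for each scaffold and 1 line for each gene in the colour of its pattern. In each of the 11 panels the lines share the highest animal, and in 9 they share the lowest. The 9 include scaffold24748, where 1 line is tied at TPM 0 in animals 2 and 6.

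A pair of variable genes, snap-scaffold12721-processed-gene-0.6 and snap_masked-scaffold39157-processed-gene-0.0, had the same length of 243 nt and the same values in all 9 libraries, with 53.5 TPM in the hepatopancreas of animal 2 and 0 in that of animals 6 and 7. They were singled out after their values were seen, and their reads cannot be attributed to 1 of them. The gene models themselves were similar to those of the comparison set in part. Their median length was 857 nt against 1012 nt, and 9 (8.41%) had an effective length under 100 nt in a hepatopancreas library against 5.43%, a length at which TPM is imprecise. Models with maker-snap in their identifier made up 54.2% against 42.7%, and models with evm 10.3% against 25.4%.

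Most variable genes were scarce in muscle. Their mean muscle TPM had a median of 0.283 in P. virginalis and of 0.433 in P. fallax, whereas the comparison set had medians of 5.40 and 8.58, although both sets had a similar median level in the hepatopancreas, 30.7 and 27.9 TPM. No count was found in the 3 P. virginalis muscle libraries for 31 variable genes (29.0%) against 7.26% of the comparison set, and none in any of the 6 muscle libraries for 15 (14.0%) against 2.71%. A mean muscle TPM of at least 1 was reached by 36 variable genes (33.6%) in P. virginalis, against 78.3% of the comparison set, and by 39 (36.4%) in P. fallax, against 81.1%. A mean muscle TPM under 1% of that in the hepatopancreas was found in 53 variable genes (49.5%) and in 15.4% of the comparison set. The same gene models were used for both species. An effect of sequence differences between the species on the P. fallax values, here and below, was not tested.

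The level in muscle differed between the patterns. Of the 32 genes high in animal 2, 13 had no count in P. virginalis muscle and 7 reached a mean TPM of 1. Of the 16 genes high in animal 7, 3 had no count and 9 reached a mean TPM of 1, and their median muscle TPM was 2.81 against 0.07 for the genes high in animal 2. Among the genes low in animal 2, 8 of 22 reached a mean TPM of 1, and among those low in animal 7, 9 of 24. The 85 genes dominant in the hepatopancreas summed to 8045, 8958 and 8297 TPM in the muscle of animals 2, 6 and 7, and maker-scaffold45857-snap-gene-0.5, chosen above for its ratio, was at 1462 TPM in the hepatopancreas of animal 7 and at 0 counts in its muscle. The part of transcripts carried over from the hepatopancreas in the muscle values of the variable genes was not tested.

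**Figure D5:**
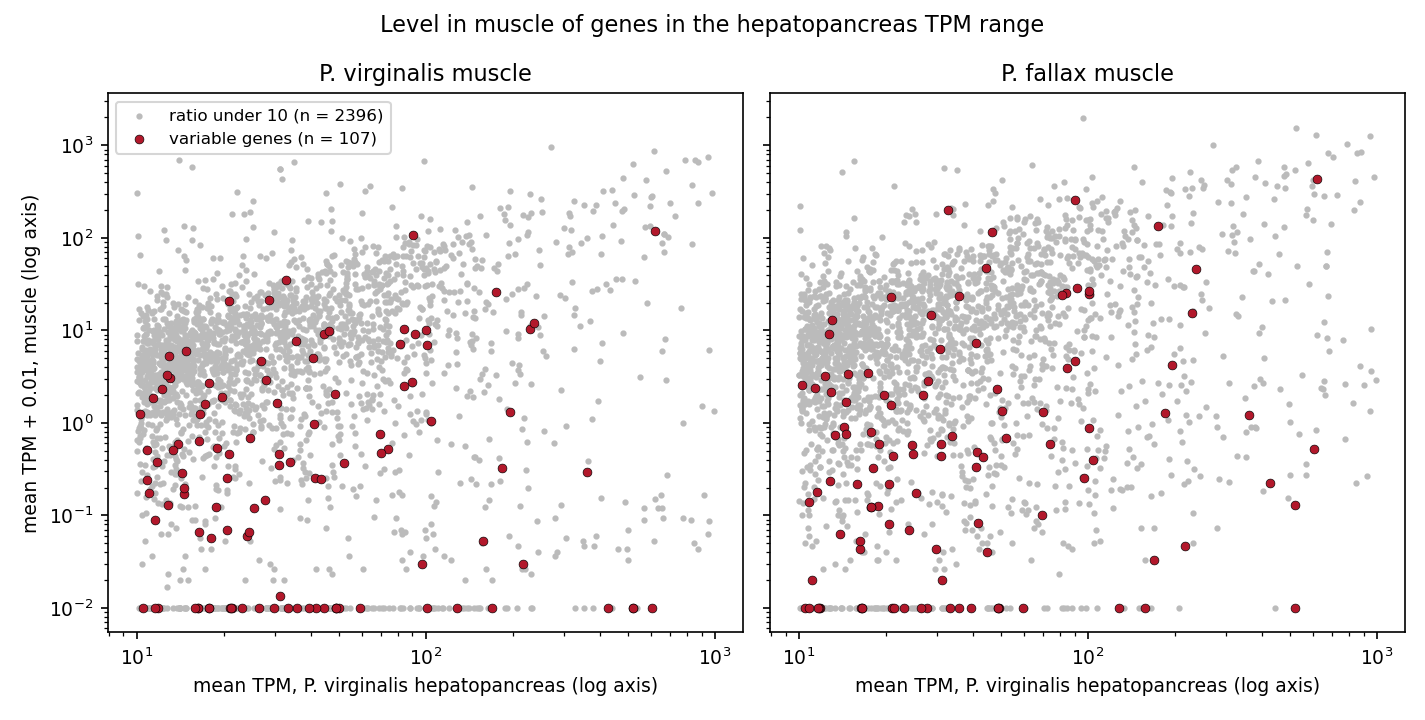
Mean TPM in the hepatopancreas of P. virginalis (log axis) against mean TPM + 0.01 in the muscle of P. virginalis (left) and P. fallax (right, log axes) for the 2396 genes with a ratio under 10 (grey) and the 107 variable genes (red). Most red points lie in the lower part of the grey cloud in both species, and those on the bottom line, 31 for P. virginalis and 23 for P. fallax, had no count in the 3 muscle libraries.

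The tissues were compared with edgeR's quasi-likelihood test on the rounded counts of the 3 hepatopancreas and 3 muscle libraries of P. virginalis. Of the 78 variable genes that had enough counts to be tested, 53 were higher in the hepatopancreas at a Benjamini-Hochberg adjusted p under 0.05. In muscle 0 were higher, also at an unadjusted p under 0.05. Among all 6770 genes tested, 38.4% were called, 24.5% as higher in the hepatopancreas and 13.9% as higher in muscle. With the animal as a replicate block in edgeR, 1 of the 78 was higher in muscle. DESeq2, with all 107 variable genes in the fit, called 59 as higher in the hepatopancreas and 0 in muscle. It called 17.8% of all 16502 genes fitted. DESeq2 can leave genes of low count without an adjusted p, and such genes count here as not called. The median log2 difference between hepatopancreas and muscle was 5.41 over the 78 genes and 0.17 over all genes tested. The rule asks for a hepatopancreas level of at least 10 TPM and uses the same libraries, so nothing is read from the difference between these shares. Within the patterns, 14 of 21 tested genes high in animal 2 were called, 16 of 20 low in animal 2, 2 of 2 high in animal 6, 6 of 8 low in animal 6, 5 of 13 high in animal 7 and 10 of 14 low in animal 7.

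Of the called genes whose tissues did not overlap, maker-scaffold38221-snap-gene-0.11 had the largest difference. It had a TPM of 1295, 248 and 19.1 in the hepatopancreas of animals 2, 6 and 7 and no count in muscle, and it was at least 16100-fold higher in the hepatopancreas, computed from its mean CPM (its count divided by the library total, scaled to the same sum) against a floor of 3 counts over the 3 muscle libraries. Its fitted log2 difference was 17.51 (SE 2.61, edgeR quasi-likelihood test, adjusted p = 0.000813). The next largest belonged to maker-scaffold15556-snap-gene-1.35, which had a TPM of 1069, 26.8 and 187 in the same animals and no count in muscle, at least 12663-fold higher in the hepatopancreas, with a fitted log2 difference of 17.13 (SE 2.40, edgeR quasi-likelihood test, adjusted p = 0.000578). Animal 2 decides much of both bounds, which were 2474 and 1742 without it, while the direction and the call stayed.

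Whether an animal that was high in the hepatopancreas was also high in muscle was asked over the 36 variable genes with a mean muscle TPM of at least 1. The animal with the highest TPM was the same in both tissues in 12 of them (33.3%), and in 712 of 1876 genes (38.0%) of the comparison set. For pairs of animals, the direction was the same in both tissues in 15 of the 36 genes for animals 2 and 6, in 17 for animals 2 and 7 and in 21 for animals 6 and 7. The order of the shares depended on the filter, since at a mean muscle TPM of at least 10 the highest animal was the same in 5 of 10 variable genes and in 38.9% of the comparison set. Without animal 2 the shares were 63.9% and 63.0%. The highest muscle TPM of the variable genes was in animal 2 in 13 cases, in animal 6 in 9 and in animal 7 in 14, whereas 74.3% of the comparison set had theirs in animal 7.

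Between the muscle libraries of 1 species, the variable genes that were detected had a larger median fold than all genes. The highest muscle TPM + 1 was a median of 3.39 times the lowest over the 36 genes in P. virginalis, against 2.62 over all 4589 genes with a mean muscle TPM of at least 1. The rule did not use the differences between muscle libraries. A fold of at least 10 was found in 5 of the 36 genes (13.9%) and in 2.99% of all genes. In P. fallax, which the rule did not use at all, the median fold over 39 genes was 4.72 against 2.71 over 5306 genes. A fold of at least 10 was found in 11 of 39 (28.2%) and in 4.24% of all genes. In both species the filter on the mean uses the libraries of the fold. A gene near 0 can thus pass through 1 high library. An example among the 11 is snap_masked-scaffold23923-processed-gene-0.10, with 0.01, 0 and 11.7 TPM in P. fallax 1, 3 and 4. The part of this filter in the folds was not tested. Genes are not replicates of the 3 animals. Among the 11, evm-scaffold48889-processed-gene-0.3 and maker-scaffold48889-snap-gene-0.6 may be pieces of 1 gene. The P. fallax animal with the highest TPM was animal 4 in 29 of the 39 variable genes, and animal 4 was highest in 69.8% of all genes as well. Without animal 2 the median fold in P. virginalis was 2.04 in the variable genes and 2.27 in all genes, so the order turned, whereas it was 1.72 against 1.69 without animal 6 and 2.50 against 1.58 without animal 7. In P. fallax the variable genes had the larger median without each animal in turn, with 2.62 against 1.94 without animal 1, 2.87 against 1.92 without animal 3 and 2.25 against 1.66 without animal 4.

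A fold of at least 10 in the muscle of both species was found in 5 variable genes. Of these, maker-scaffold12396-exonerate_protein2genome-gene-0.10, rests on 3, 0 and 1 muscle counts in P. virginalis and 2, 0 and 1 in P. fallax, so its folds in both counts above are not supported by reads. It and the 2 genes that follow were chosen after their values were seen. The gene maker-scaffold256000-snap-gene-0.0 had TPM values of 96.9, 1.26 and 0.53 in the hepatopancreas of animals 2, 6 and 7 and of 100, 0.72 and 3.83 in the muscle of the same animals. It was high in both tissues of animal 2 and low in both tissues of the others. In the muscle of P. fallax it had 3.64, 343 and 257 TPM in animals 1, 3 and 4, so the females of that species differed as well. The gene evm-scaffold1180-processed-gene-0.2 had 24.8, 215 and 285 TPM in the hepatopancreas and 60.5, 14.7 and 3.63 in the muscle of animals 2, 6 and 7, with opposite orders in the tissues, and 1.78, 64.4 and 332 TPM in P. fallax 1, 3 and 4.

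The species were compared in muscle with edgeR's quasi-likelihood test on the 3 P. virginalis and 3 P. fallax libraries. Of the 31 variable genes with enough counts in muscle to be tested, 0 differed between the species at an adjusted p under 0.05, where 1.25% of all 5053 genes tested were called. At an unadjusted p under 0.05 there were 3 of 31, against 7.50% of all genes. DESeq2, which fitted the 90 variable genes with any count in these libraries, called 0 of them, against 0.98% of all 12353 genes fitted. Genes that it left without an adjusted p count as not called, so these shares cannot be set beside those of edgeR. The median log2 difference of P. virginalis from P. fallax was -0.48 over the 31 genes and -0.01 over all genes tested. No difference between the species was thus detected for the 31 genes in the edgeR fit, which does not show equal levels. With no filter on low counts, 5 of 90 variable genes were called (3 higher and 2 lower in P. virginalis), against 2.49% of all 12353 genes.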

How the data were processed

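RNA was measured in 9 libraries of total RNA, made with a kit that does not mark strand. The authors deposited Rsem gene tables, 1 for each library. The expected counts were deposited by the authors without normalization. TPM, which Rsem derives from the expected count and the effective length, were deposited by the authors, as were its posterior mean and the bounds of its interval. FPKM values were deposited by the authors as Rsem gives them and used as an alternative only. Gene lengths and effective lengths, a unit of their own, were deposited in the same files. HISAT2 2.0.4 and RSEM 1.2.30 are named in the submitters' processing notes, and no source used here gives the release of the gene models. The sample titles give 3 animals of each species. Each library is a different animal or tissue, and no library has a technical replicate.

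The members were found by the stated rule on TPM. The rule, the gene set and the tests were chosen with earlier results of these data known. Expected counts were rounded and tested with edgeR 4.0.16 in R 4.3.3 (TMM factors, filterByExpr, quasi-likelihood test, Benjamini-Hochberg adjusted p under 0.05 over all genes tested), each fit holding the compared groups alone. DESeq2 1.42.0 and limma 3.58.1 gave alternatives, and Python 3.11.15, NumPy 2.4.6, pandas 2.3.3 and matplotlib 3.10.9 were used for the rest. The edgeR step was tested on simulated data. The named genes are the 2 members with the widest ratio of TPM + 0.1 in each of 6 patterns and, for each test, up to 2 called members in each direction whose groups do not overlap. Where a library had no count, a floor of 3 counts in that library was used for folds between animals, and of 3 counts over the 3 muscle libraries together for folds between tissues.

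The sample titles pair hepatopancreas and muscle libraries by the animal's number. After subtraction of the group mean, log2 CPM values of the paired libraries correlated over genes, which are not independent replicates, with r = -0.080 in animal 2, 0.215 in animal 6 and -0.006 in animal 7, and between -0.190 and 0.135 for libraries of different animals.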

Additional observations from a re-analysis of the deposited data

How the results depend on the processing

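The number of variable genes was 107 and lay between 72 and 141 under the other units, limits and corrections tried, except that a ratio of at least 5 gave 265 and of at least 20 gave 61. TMM-normalized CPM and DESeq2 size factors gave 112 genes each, of which 99 were among the 107, counts thinned to the smallest library gave 123, of which 99 were shared, and interval bounds kept 76. Without 1 animal the number lay between 34 (without animal 2) and 85. A clear gap of at least 4 times between the middle animal's distances kept 10 genes high in animal 2, 12 low in animal 2, 0 high and 4 low in animal 6, and 7 high and 7 low in animal 7, 40 of the 107 in all. TMM factors lowered animal 2 against the others: its median log2 difference from animal 6 over the TPM range moved from 0.04 to -0.45. Between the tissues, 53 of 78 variable genes were called, against 38.4% of all genes. With no filter on low counts 87 of 107 were called (86 higher in the hepatopancreas, 1 in muscle), against 18.3% of all genes. The replicate block gave 53 of 78 (52 and 1), against 34.6% of all genes. Without 1 animal, between 51 and 59 of the 81 to 87 tested were called, against 26.4% to 37.3% of all genes. Of these, 2 were higher in muscle without animal 2, 0 without animal 6 and 1 without animal 7. Between the species in muscle, library sizes alone called 1 of 31 variable genes, against 1.42% of all genes. No filter on low counts called 5 of 90, against 2.49% of all genes. No animal left out gave a call of a variable gene between the species. Over all genes that comparison called 63, against 121 with DESeq2, 307 with no filter, 40 and 39 without P. virginalis 6 and 7 and 35 without P. fallax 4.

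The share of variable genes with the same highest animal in both tissues lay between 44.4% and 63.9% without 1 animal, where the remaining pair decides it. The median muscle fold of the variable genes in P. virginalis was 5.32 with TPM + 0.1, 8.33 at a mean muscle TPM of at least 10 and 2.24 with TMM-normalized CPM + 1, and between 1.72 and 2.50 without 1 animal. In P. fallax it was 8.14, 10.4 and 2.52 in the same order, and between 2.25 and 2.87 without 1 animal. Over all genes, TPM + 0.1, the muscle limit of 10 and TMM-normalized CPM + 1 gave 3.65, 2.81 and 1.77 in P. virginalis. They gave 3.66, 3.39 and 1.99 in P. fallax. Each of these lay below the value of the variable genes. Without P. virginalis 2 the order turned, with 2.27 over all genes and 2.04 in the variable genes. No alternative reversed the direction of a named gene. Of the checks on named genes, 52 kept the size or the call and 28, all between animals, moved by at least 1 in log2. With posterior mean TPM, the log2 difference of the odd animal went from -10.2 to -1.87 for maker-scaffold33142-exonerate_protein2genome-gene-0.3 and from -10.3 to -2.34 for snap-scaffold253595-processed-gene-0.4. It went from 9.71 to 3.97 for snap-scaffold24748-processed-gene-1.12 and from -7.17 to -3.97 for snap-scaffold22087-processed-gene-0.8. These numbers rest on 3 animals and 1 library for each, and 21 variable genes had at most 3 counts in their lowest animal.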
